A study of Saccharomyces cerevisiae with 9 samples.

Results

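The tRNAs for glutamate, glutamine and lysine were examined through the 4 microarray probes named Glu1y, Gln1y, Lys1y and Lys2y, of 64 yeast tRNA probes in all. They were chosen by name, as the probes without the prefix m for the amino acids whose only codons are the A-ending and the G-ending codon of a split box. The spiked standard EcLys2 was not counted among them. tRNA microarrays carry DNA probes to single tRNA isoacceptors, and each of the 9 arrays was read in Cy3 and an Atto dye. The Not1 degron strain of budding yeast, MATa HIS3,15 ADE2 trp1-1 can1-100 with a mutant leu2 allele in the records, carried not1::NOT1-AID-Myc6-NATMX4, a tag through which auxin triggers the degradation of Not1, the scaffold of the Ccr4-Not complex. The wild-type strain lacked the tag, and both strains carried ura3-1::pADH1-OsTIR1-URA3, so that the plant receptor OsTIR1 that the degron needs was expressed from the ADH1 promoter in all cells compared. In the records every sample has the auxin treatment (1 mM, 15 min), whereas the methods give ethanol for the control, and the strain lists of the methods name another mating type, other alleles of HIS3 and ADE2 and another tag on Not1. The depletion of Not1 itself cannot be read from tRNA probes. There were 3 charging arrays per strain, on which Cy3 marked the charged tRNA and Atto the total tRNA of the same culture, and 3 abundance arrays, on which Cy3 marked Not1 depleted and Atto wild-type tRNA, without a dye swap. The cultures were grown independently for each replicate according to the records.

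A tRNA is charged when its synthetase joins the cognate amino acid to its 3′ end, and only charged tRNA can bring an amino acid to the ribosome. Glutamate, glutamine and lysine each share a codon box with another amino acid, so their tRNAs must read codons that end in A or G and leave those that end in a pyrimidine. In yeast, the tRNAs with a uridine at the wobble position (the first anticodon base) for these amino acids carry a side chain that depends on the Elongator complex and a sulfur that depends on the Urm1 pathway, and these modifications aid the reading of the codons that end in A. Isoacceptors with a cytidine there read the codons that end in G and lack the sulfur.

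The genes behind these tRNAs are shown because the probe names do not tell which isoacceptor a probe binds. The R64 annotation of the yeast genome in RefSeq lists 16 nuclear genes for tRNA-Glu, 10 for tRNA-Gln and 21 for tRNA-Lys, and 1 mitochondrial gene for each. The anticodon was found in each nuclear gene as the loop between the arms of a paired stem, and the most common sequence of each class is given as DNA, 5′ to 3′, without intron, with the anticodon in capitals.
tRNA-Glu TTC: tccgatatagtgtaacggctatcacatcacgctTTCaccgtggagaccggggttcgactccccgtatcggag
tRNA-Glu CTC: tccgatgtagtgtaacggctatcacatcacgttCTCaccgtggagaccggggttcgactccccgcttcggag
tRNA-Gln TTG: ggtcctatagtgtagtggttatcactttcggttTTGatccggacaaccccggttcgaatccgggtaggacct
tRNA-Gln CTG: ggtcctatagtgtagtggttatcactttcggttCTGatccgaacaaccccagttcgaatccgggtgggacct
tRNA-Lys CTT: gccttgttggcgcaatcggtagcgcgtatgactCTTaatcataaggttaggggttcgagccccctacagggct
tRNA-Lys TTT: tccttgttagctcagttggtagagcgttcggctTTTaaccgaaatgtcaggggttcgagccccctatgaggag
The glutamate class TTC held 14 genes, 13 of them with the sequence shown (for example YNCB0018W, chromosome II, 645167 to 645238, plus strand), and the class CTC held 2 (YNCD0021C, chromosome IV, 1017207 to 1017278, minus strand). The glutamine class TTG held 9 genes, 7 of them with the sequence shown (YNCC0010C, chromosome III, 168301 to 168372, minus strand), and the class CTG held 1 (YNCM0036C, chromosome XIII, 808246 to 808317, minus strand). All 14 lysine genes with CTT had the same sequence (YNCC0009C, chromosome III, 151284 to 151356, minus strand), as did all 7 with TTT, which carry an intron of 23 bases (YNCD0003W, chromosome IV, 359577 to 359672, plus strand). The annotation notes wobble thiolation for the 14, 9 and 7 genes of the classes TTC, TTG and TTT and for none of the genes with C in that place. The paired isoacceptors were identical at 67 of 72 positions for glutamate and 68 of 72 for glutamine, but at only 53 of 73 for lysine. Whether Glu1y and Gln1y detect the minor isoacceptor as well, and which of Lys1y and Lys2y is which, was not tested, since the files pair no probe with an anticodon or a sequence.

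Each array held 12 blocks of 11 rows and 11 columns, with 12 spots each for Glu1y and Gln1y and 6 each for Lys1y and Lys2y. The spots in rows 6 to 8 of each block were given the names printed 1 row above them, in rows 5 to 7, and the naming of both lysine probes rests on that move. At the position used for the lysine probes, the blocks named Lys1y and those named Lys2y differed in log2 (Cy3/Atto) by a median of 0.48 over the 9 arrays (0.05 to 1.95). At the position where the files print their names, the same sets of blocks differed by a median of 0.05 (0.00068 to 0.12). By the median of their spots, all 4 probes were bright against the local background. The median Atto foreground of their spots was 30.6 to 1636 times the local background, that of Cy3 was 4.88 to 471 times it, and at least 5 of 6 or 10 of 12 spots per probe gave signal on every array. On wild-type charging replicate 1, however, the 95th percentile of the blank spots was 12.49 in log2 Atto. On the other charging arrays it was 4.95 to 8.14. Lys1y lay below that percentile on wild-type replicate 1, at 12.04, while Lys2y, at 12.73, and the others lay above it.
The spots in row 5 have no usable name, and those of column 1 are plotted beside Gln1y and Glu1y because their ratios lay close to those of these probes. They entered none of the values of the 4 probes.

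**Figure D1:**
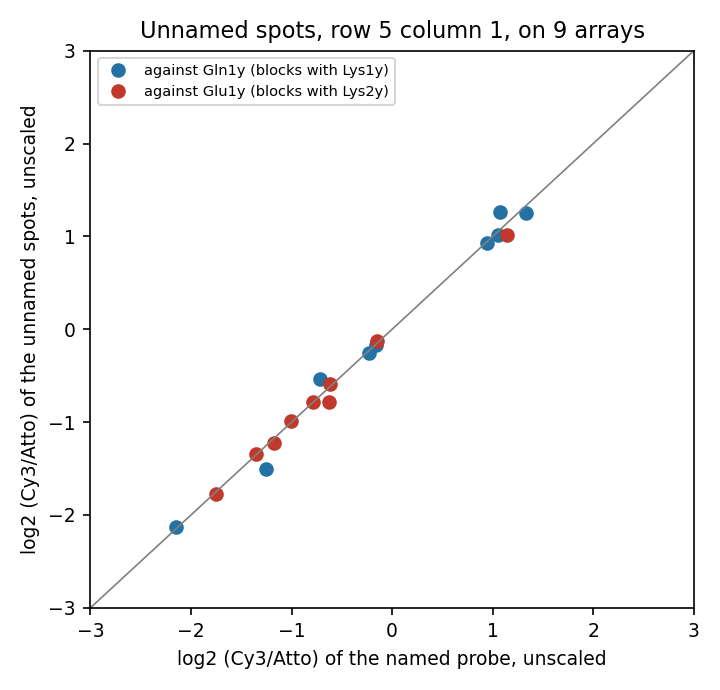
Median log2 (Cy3/Atto), not scaled to the standards, of the unnamed spots in row 5 column 1 (vertical axis) against that of Gln1y in the blocks with Lys1y and of Glu1y in the blocks with Lys2y (horizontal axis), 1 point per array and set, with a line of equality. The points lie within 0.24 of the line for Gln1y and within 0.16 for Glu1y.

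The charged fraction is the Cy3 to Atto ratio divided by that of the spiked in vitro tRNA standards, given as a percent. The 4 standards differed among themselves on each charging array by 1.99 to 3.70 in log2 (Cy3/Atto), and 119 of the 384 values of the 64 probes exceeded 100%. The percent is therefore a relative scale. Differences between probes on the same array do not depend on the scaling, but they are differences in dye ratio, which the standards also showed among themselves. How far such differences reflect charging was not tested. The median of the 64 probes ranged from 51.8% to 107% between the charging arrays. Each charging array correlated with the mean profile of the charging arrays at r = 0.87 to 0.95 across the 64 probes, of which the array itself is a part. The abundance arrays were compared in pairs of single arrays, which is another measure than the correlation with a mean profile. Across the 64 probes the log2 ratios of replicates 1 and 3 correlated at r = 0.79, replicates 1 and 2 at 0.07 and replicates 2 and 3 at -0.37. Over the 40 probes without the prefix m, the same pairs gave 0.62, -0.40 and -0.82. Replicate 2 correlated with the mean profile of the charging arrays at 0.63, replicate 1 at 0.02 and replicate 3 at -0.40. These are correlations across probes, which are not independent. Neither the direction of replicate 2 nor whether that array holds the labelled abundance hybridization is settled by the data, although the methods give the same dyes for all 3. Every abundance mean that includes it carries this limit, and abundance is given below with that array, without it and with its sign turned, a setting added after seeing the data.

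Glu1y, the probe for the glutamate tRNA, had the lowest charged fraction of the 4 on every charging array. Its charged fraction was 13.02%, 22.6% and 20.1% in replicates 1, 2 and 3 of the Not1 depleted cells and 24.4%, 20.6% and 18.2% in those of the wild-type. The values of the strains overlapped, and the means were 18.6% ± 5.0 and 21.1% ± 3.1 (SD, n = 3 each). Gln1y reached 102%, 43.2% and 59.5% in Not1 depleted cells and 32.9%, 63.1% and 26.4% in wild-type cells. Its highest value came from a Not1 depleted and its lowest from a wild-type culture, but wild-type replicate 2 lay above both other Not1 depleted values. Lys1y gave 172%, 60.5% and 81.7% against 63.2%, 120.5% and 40.2%, the widest range of the 4 probes. Lys2y gave 45.8%, 44.8% and 61.2% against 67.1%, 51.1% and 38.1%, so that here the values of the strains interleaved.

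**Figure D2:**
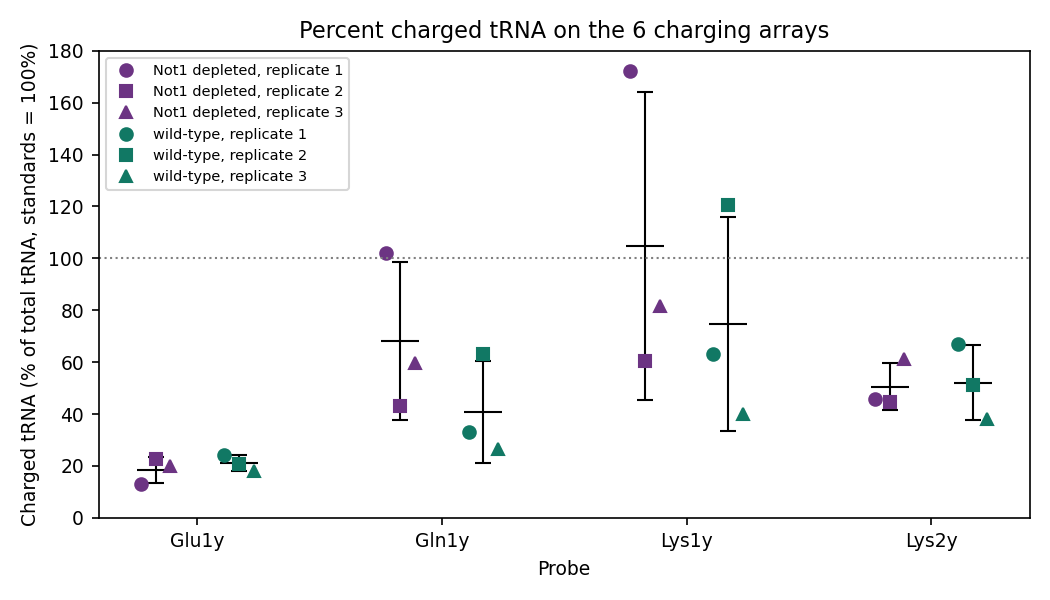
Percent charged tRNA (vertical axis, standards set to 100%) for the 4 probes, with 3 charging arrays per strain as points whose shape gives the replicate, and mean ± SD as bars. Glu1y lies between 13.02% and 24.4% in both strains, and Lys1y spreads from 40.2% to 172%.

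The first question was whether the charging of these tRNAs differs after Not1 depletion. On the log2 scale the change of Not1 depleted against wild-type cells was 0.75 for Gln1y, 0.49 for Lys1y, -0.02 for Lys2y and -0.21 for Glu1y, each with a standard error of 0.47. None of the 4 passed in limma (adjusted p = 0.99 for each, Benjamini-Hochberg over 64 probes). limma called 0 of all 64 probes, 0% of those tested, and 0 also at an unadjusted p of 0.05. The medians were 0.24 over the 4 probes, 0.0033 over all 64 and -0.19 over the 7 probes for the split boxes ending in a pyrimidine (Asn, Asp, Cys, His, Phe and Tyr). Exact permutation of the 6 arrays gave two-sided p = 0.3 for Gln1y, 0.5 for Lys1y, 0.6 for Glu1y and 1 for Lys2y, where 0.1 is the smallest that 3 against 3 can give. Without Not1 depleted replicate 1 the change was 0.42 for Gln1y, 0.06 for Lys1y and 0.03 for Glu1y.

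Part of the spread was shared by all probes of an array, and the charged fraction was therefore also expressed relative to the median of the 64 probes of the same array. On this log2 scale the values of Gln1y were 0.0045, -0.59 and -0.38 after Not1 depletion and -1.70, -0.65 and -0.97 in the wild-type. All 3 Not1 depleted values exceeded all 3 wild-type values, by a mean of 0.79 (exact permutation p = 0.1, the smallest possible). The strains no longer separated (exact p = 0.2) with empty spots kept, where the difference was 0.69, and with dim repeated spots left out, where it was 0.76. Of the 64 probes, 4 (6.25%) were higher in Not1 depleted cells without overlap on this scale, and Gln1y was the only one of the 4 described here. The difference lay between 0.49 and 1.01 when single arrays were left out. Lys1y differed by 0.52 in the same direction with overlap (0.76, -0.10 and 0.08 against -0.76, 0.28 and -0.36). Glu1y (-2.97, -1.52 and -1.94 against -2.13, -2.27 and -1.50) and Lys2y (-1.15, -0.53 and -0.34 against -0.67, -0.95 and -0.44) differed by -0.18 and 0.01, less than the SD of either strain.

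**Figure D3:**
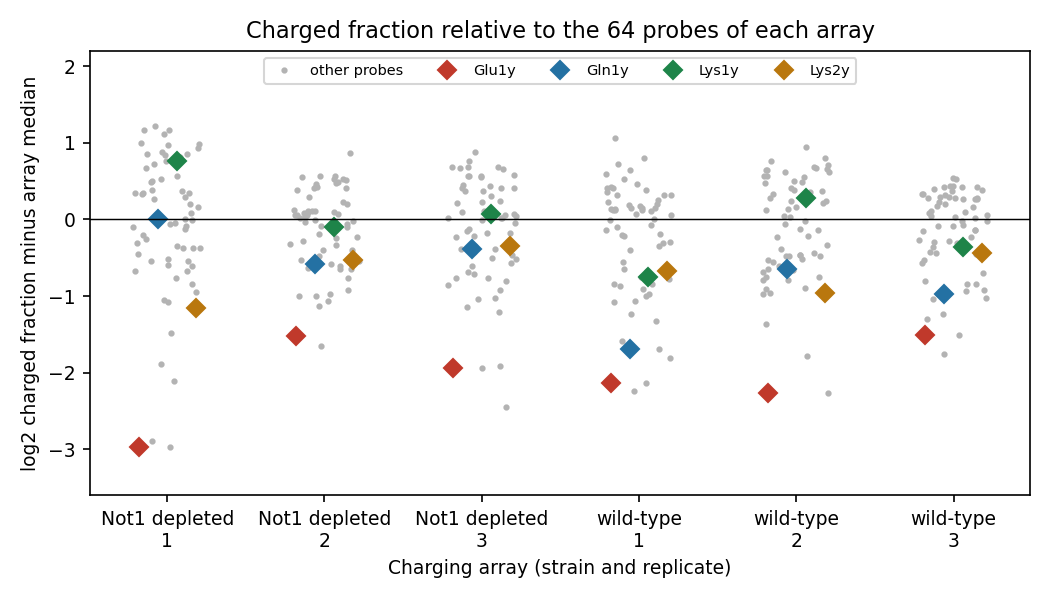
Log2 charged fraction minus the median of the 64 probes (vertical axis) on each of the 6 charging arrays, with the 4 probes as colored diamonds and the other 60 as grey points. Glu1y stands between -2.97 and -1.505 on every array, while Lys1y scatters from -0.76 to 0.76 around the median.

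Within each of the 6 charging arrays the charged fraction rose from Glu1y to Gln1y and from Gln1y to Lys1y. Gln1y exceeded Glu1y by a mean log2 difference of 1.34 ± 0.94, Lys2y exceeded it by 1.37 ± 0.32 and Lys1y by 2.04 ± 0.97 (SD, n = 6 arrays), each on 6 of 6 arrays. Lys1y exceeded Gln1y by 0.70 ± 0.21, also on 6 of 6. For these 4 of the 6 possible pairs an exact sign-flip test over the 6 arrays gave two-sided p = 0.03125, the smallest possible, and 0.0469 after Benjamini-Hochberg adjustment over the 6 pairs. The Atto signal ran the opposite way. By mean Atto signal, brightest first, Glu1y ranked 2 of the 64 probes, Gln1y 9, Lys2y 14 and Lys1y 17, the reverse of their order in mean charged fraction. Gln1y was dimmer than Glu1y and Lys1y dimmer than Gln1y on 6 of 6 arrays, by mean log2 differences of -2.13 and -1.15. The standards differed among themselves by 1.99 to 3.70 on these arrays, beside mean differences of 0.70 to 2.04 for the 4 pairs that passed. The part of signal strength, or of a ratio particular to a probe, in the order of the probes was not tested. Lys2y and Gln1y could not be ordered, with a mean difference of 0.03 ± 0.74, a range of -1.16 to 1.03 and Lys2y higher on 4 of 6 arrays (exact adjusted p = 0.91). Lys2y minus Lys1y had a mean of -0.67 ± 0.76, was below 0 on 5 of 6 arrays and reached -1.91, but this pair did not pass (exact adjusted p = 0.11). With any 1 array left out none of the pairs can pass, since 5 arrays cannot give a p under 0.0625. The pair differences were not separable between the strains (exact permutation p = 0.2 to 0.5). With the names as deposited the lysine spots hold another probe, Lys1y minus Gln1y was -0.22, and none of the 6 pairs passed, with an exact adjusted p of 0.0625 for each of the 3 pairs with Glu1y.

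Against all 64 probes, Glu1y ranked lowest or next to lowest in charged fraction on each of the 6 charging arrays. Averaged over the arrays it stood at -2.06 relative to the array median, with Tyr1y at -2.13 and mPro1y, the next, at -1.51. Gln1y ranked 14 from the bottom at -0.71, Lys2y 15 at -0.68 and Lys1y 32 at -0.02. The median over the 4 probes was -0.70, that of the 7 probes for the pyrimidine-ending boxes -0.75 and that of all 40 probes without the prefix m -0.04. The log2 ratio correlated with the Atto signal, which is also its denominator, at r = -0.34 to -0.61 and rho = -0.13 to -0.58 across the 64 probes of each charging array. Glu1y had no saturated spot on the charging arrays.

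The prefix m is not explained in the files, which hold mGlu1y, mGln1y and mLys1y for the same amino acids. mLys1y stood highest of all 64 probes on average, 0.84 above the array median, with 161% ± 54 charged in Not1 depleted and 147% ± 62 in wild-type cells. It was a dim probe, with a median Atto foreground of 122.5 to 349 on the charging arrays and a background of 27 to 38.5. On replicate 1 of the Not1 depleted and of the wild-type cells its foreground (167 and 349) lay below the 95th percentile of the blank spots. That percentile was 8.14 and 12.49 in log2 Atto, and these arrays gave 221% and 176% for mLys1y. The foreground of mGlu1y (185 and 189) lay below it on the same arrays. By mean Atto signal, brightest first, mLys1y ranked 52 of the 64 probes, mGlu1y 55 and mGln1y 12. The part of signal strength in these values was not tested. mGlu1y, at 80.2% ± 13.9 and 99.0% ± 32.3, and mGln1y, at 64.7% ± 4.3 and 65.9% ± 17.4, lay closer to the median (SD, n = 3 each). None of these 3 passed between the strains in limma (log2 change -0.26, 0.0034 and 0.19 for mGlu1y, mGln1y and mLys1y, adjusted p = 0.99).

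Across the 6 charging arrays the probes fell into pairs by the course of their relative charged fraction. Gln1y and Lys1y followed each other (r = 0.93), as did Glu1y and Lys2y (r = 0.86), while Lys1y and Lys2y, both for lysine, ran against each other (r = -0.63). The probes most like Glu1y were Asp2y (r = 0.96), Asp1y (0.93) and His1y (0.91), those most like Gln1y were Lys1y, Arg2y (0.93) and mLeu1y (0.90), those most like Lys1y were mLeu1y (0.97), Gln1y and Thr3y (0.92), and those most like Lys2y were Ala1y (0.89), Glu1y and His1y (0.76). All are Pearson coefficients over the same 6 arrays, which share their scaling, and are given as a description. The naming of Asp2y is doubtful, since its 6 spots in column 11 of row 3 of the blocks with Lys2y were dimmer in Atto than those at the same position in the other blocks on all 9 arrays.

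The total and the charged channel were then viewed apart, each relative to the standards on the same array. The median of the standards was taken separately for the ratio and for each channel. Charged minus total signal is therefore not the log2 charged fraction. For Glu1y on Not1 depleted replicate 1, the total was 6.34, the charged signal 1.32 and the log2 charged fraction -2.94. The total tRNA signal of Gln1y was 2.77, 5.0 and 4.14 in Not1 depleted and 5.25, 3.52 and 5.52 in wild-type cells on the log2 scale. The arrays on which the Gln1y total was lowest were those on which its charged fraction was highest, in exactly opposite order over the 6 arrays, and the total is the denominator of that fraction. The log2 change in total signal was -0.79 for Gln1y, -0.49 for Lys1y, -0.39 for Lys2y and 0.14 for Glu1y, with a standard error of 0.60 to 0.61. The sign for Glu1y was negative when the scale was set by Ser3h (-0.44), His1h (-0.23) or EcLys2 alone (-0.09). In limma none of the 4 passed (adjusted p = 0.91 to 0.96), 0 of the 64 probes did (0%), and 1 was higher (1.56%) and 0 lower at an unadjusted p of 0.05. The fitted log2 change in charged tRNA signal was -0.48 for Lys1y, -0.52 for Gln1y, -0.55 for Glu1y and -0.89 for Lys2y, each with a standard error of 0.97. None of these passed either (adjusted p = 1.00, with 0 of 64 probes called, 0%, and 0 at an unadjusted p of 0.05), and the median over all 64 probes was -0.26. Not1 depleted replicate 1 gave the lowest charged signal for all 4 probes on the scale of the standards. Its unscaled median Cy3 foreground was also the lowest for Glu1y (4809.5) and Lys2y (1728). For Lys1y (4064) and Gln1y (4379.5) it exceeded that of Not1 depleted replicate 2 (1847.5 and 4078.5). Without Not1 depleted replicate 1, the changes in charged signal were 0.04 for Lys1y, 0.41 for Gln1y, 0.47 for Glu1y and 0.09 for Lys2y.

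**Figure D4:**
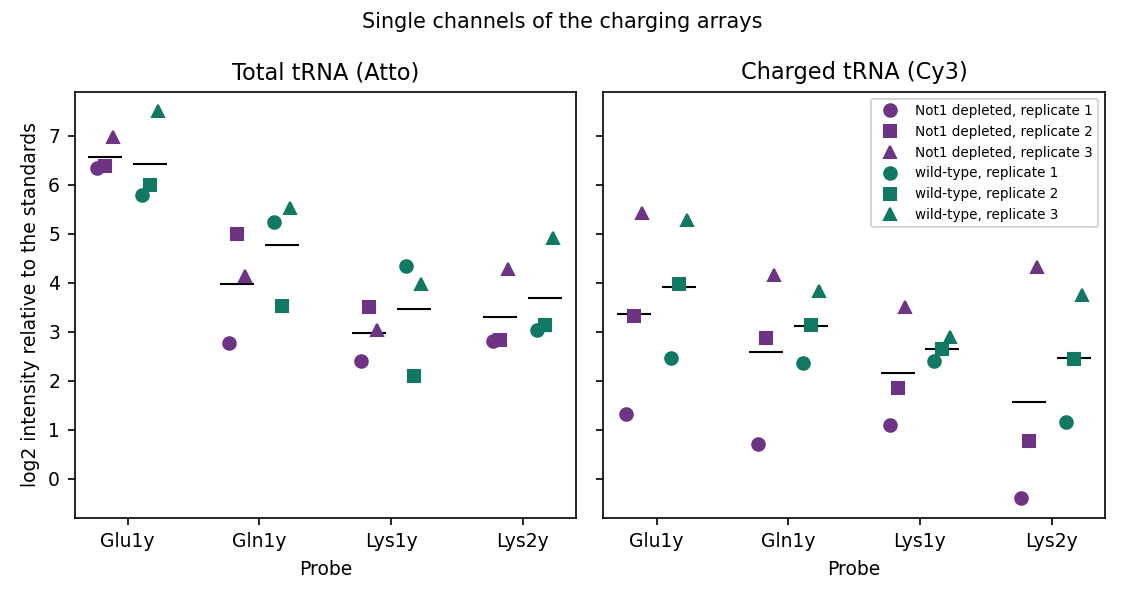
Log2 intensity relative to the standards (vertical axis) of the total tRNA channel, left, and the charged tRNA channel, right, for the 4 probes on the 6 charging arrays, with a bar at each strain's mean. The strains overlap for every probe in both channels, and on this scale the circles of Not1 depleted replicate 1 are the lowest in the charged channel.

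The remaining question was whether the amount of these tRNAs differs between the strains. In abundance replicates 1, 2 and 3 the log2 ratio (Not1 depleted over wild-type) was -2.41, -0.24 and -1.08 for Gln1y and -2.44, -0.05 and -1.55 for Lys1y. For Lys2y it was -1.86, -1.17 and -0.28. Glu1y stood at -1.42 and -1.43 but at 0.99 in replicate 3. Thus Gln1y, Lys1y and Lys2y lay below 0 on all 3 arrays as deposited, as did 29.7% of the 64 probes, while Glu1y had both signs, like 70.3% of them. With the sign of replicate 2 turned, its values were 0.24, 0.05 and 1.17 for Gln1y, Lys1y and Lys2y, and none of the 4 probes lay below 0 on all 3 arrays, against 40.6% of the 64, or above 0 on all 3, against 7.81%. The means were -1.24 for Gln1y, -1.35 for Lys1y, -1.10 for Lys2y and -0.62 for Glu1y, each with a standard error of 0.58. They corresponded to Not1 depleted over wild-type ratios of 0.42, 0.39, 0.47 and 0.65. Without a dye swap, a dye effect cannot be told apart from a difference between the strains in these ratios. None of the 4 passed in limma (adjusted p = 0.21, 0.21, 0.21 and 0.46), and limma called 0 of 64 probes (0%). At an unadjusted p of 0.05 limma had 13 probes lower (20.3%) and 0 higher, and Gln1y and Lys1y were among the 13. With replicate 2 turned, the counts were 13 lower (20.3%) and 0 higher as well, with Lys1y among the 13 but not Gln1y, and 0 of 64 (0%) passed after adjustment. The exact sign-flip p was 0.25 for Gln1y, Lys1y and Lys2y, the smallest that 3 arrays can give, and 0.5 for Glu1y.

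Most probes shared this shift on the scale of the standards, which differed among themselves by 0.60 to 2.32 on the abundance arrays. With replicate 2 as deposited, the median of the fitted means over all probes was -0.90. It was 0.048 with deposited names, -0.37 with EcTyr2 alone as the standard and -0.39 without scaling. In these settings, in the same order, the mean of Gln1y was -1.24, -0.37, -0.71 and -0.73. The median of the 64 probes was -1.86, 0.02 and -0.58 on the 3 arrays, all 40 probes without the prefix m had a mean below 0 with a median of -1.06, and the 4 probes had a median of -1.17. With replicate 2 turned, 37 of the 40 had a mean below 0 with a median of -1.05, and the median of the 4 was -0.70. Relative to the array median, Gln1y stood at -0.55, -0.25 and -0.50 and Lys1y at -0.58, -0.07 and -0.97, below 0 on all 3 arrays like 18.8% of the 64 probes. Turned, replicate 2 put them at 0.25 and 0.07, so that neither lay below the median on all 3 arrays, as 23.4% of the probes then did. Lys2y stood at -0.0043, -1.18 and 0.30 and Glu1y at 0.44, -1.45 and 1.57. Among the 40 probes without the prefix m, Glu1y had the highest ratio of all in replicates 1 and 3 and ranked 3 from the bottom in replicate 2, or 3 from the top with that array turned. Turned, Glu1y was above the median of the 64 probes on all 3 arrays, like 20.3% of them. On replicate 1, 3 of its 12 spots were saturated in Atto, and with saturated spots left out its mean was -0.61.

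Without abundance replicate 2, limma called 23 probes lower (35.9% of 64) in place of 0. The fit takes the probes of an array as independent, although the level of the standards moves all of them at once. Gln1y, at -1.74, and Lys1y, at -1.998, were among them (standard error 0.61, adjusted p = 0.030 for both), while Lys2y at -1.07 (adjusted p = 0.15) and Glu1y at -0.22 (adjusted p = 0.77) were not. With the sign of replicate 2 turned, the means were -1.08 for Gln1y, -1.32 for Lys1y, -0.33 for Lys2y and 0.33 for Glu1y. With the median of all probes in place of the standards, they were -0.43 for Gln1y, -0.54 for Lys1y, -0.29 for Lys2y and 0.19 for Glu1y. mGlu1y, mGln1y and mLys1y had means of -0.23, -0.10 and -0.40 on the scale of the standards and stood above the median of the 64 probes on all 3 arrays as deposited, as did 21.9% of the probes. With replicate 2 turned, none of these 3 did, since they then stood at -0.13, -0.09 and -0.47 on that array.

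**Figure D5:**
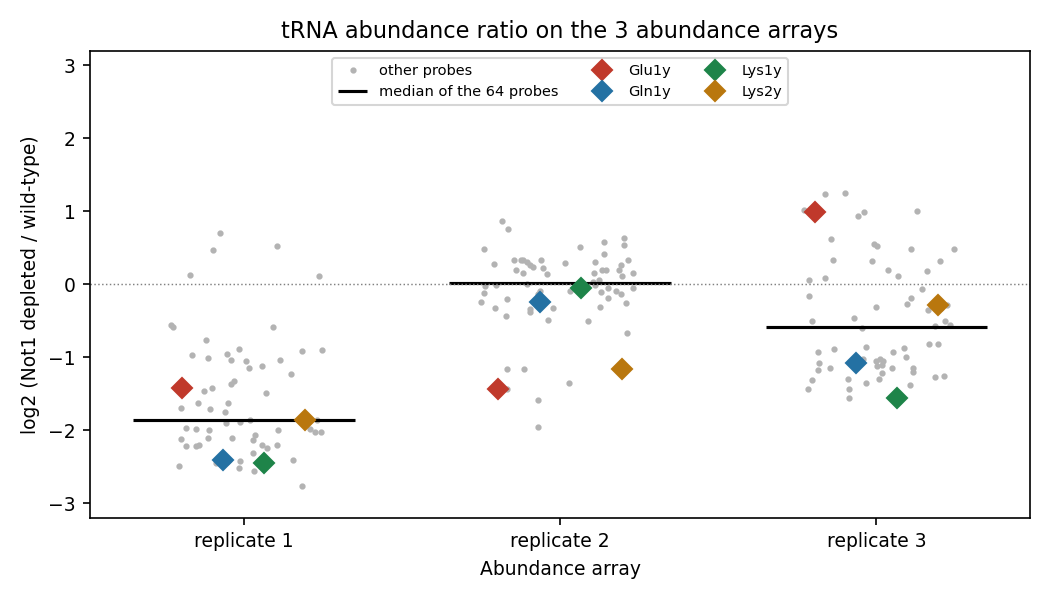
Log2 abundance ratio, Not1 depleted over wild-type (vertical axis), on the 3 abundance arrays with their deposited signs, with the 4 probes as colored diamonds, the other 60 as grey points and a black line at the median of the 64 probes. Gln1y and Lys1y lie below this line in each replicate, and Glu1y stands at 1.57 from it in replicate 3 and at -1.45 in replicate 2.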

How the data were processed

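The deposited tables held, for each of 1452 spots, foreground and background intensity of both dyes and the percent of pixels above background, written out by the authors' imaging program and not normalized. The authors normalized to spiked standards with their own scripts, a step absent from these values, and their scanning software is not given in the sources used here. Spots in block rows 6 to 8 took the names printed in rows 5 to 7, and row 5, left without names, was dropped. Background was corrected with normexp (offset 50, limma 3.58.1, R 4.3.3), and spots with under 50% of pixels above background plus 2 SD in both channels were left out. Log2 ratios and each channel were scaled to their own median of the standards (Ser3h, His1h, EcLys2, EcTyr2), and repeated spots were averaged. Strains were compared with lmFit and eBayes across 64 probes (Benjamini-Hochberg, threshold 0.05), which gave all probes the same variance in the ratio fits, and with exact permutation or sign-flip tests. No 2 arrays had more than 0.41% of spots with equal values in both dyes. The number of arrays limits the precision, and array intensities hold no counts. tRNA genes came from RefSeq R64, and no coordinates came from the arrays. Python 3.11.15, numpy 2.4.6, pandas 2.3.3, scipy 1.17.1 and matplotlib 3.10.9 were used. The named probes were the 4 members, their counterparts with the prefix m and the 3 probes most like each member. The 4 probes, the lists and the alternatives were chosen with earlier results of these data known.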

Additional observations from a re-analysis of the deposited data

Results flagged for a closer look

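The spots in row 5 of the blocks carry no usable name, and those in column 1 gave signal on all 9 arrays. Their median Atto foreground exceeded the 95th percentile of the blank spots of the same array by a median of 6.42 on the log2 scale in the 6 blocks that hold Lys1y and of 8.22 in the 6 blocks that hold Lys2y. In the former, log2 (Cy3/Atto) differed from that of Gln1y in the same blocks by a median of 0.03 (0.01 to 0.24) over the 9 arrays, and from that of Glu1y by a median of 1.32 (0.55 to 3.04). In the latter it differed from Glu1y by a median of 0.03 (0.0041 to 0.16), and from Gln1y by a median of 1.27 (0.18 to 3.19). In each set the nearer probe was the same on 9 of 9 arrays. The Atto signal itself differed by up to 0.35 from Gln1y and by up to 2.99 from Glu1y. These positions were picked after their values were seen, and no name was given to them. With these spots counted as Gln1y and Glu1y, the mean abundance ratios were -1.21 and -0.64.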

How the results depend on the processing

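In limma, none of the 4 probes passed in charged fraction or in either channel under any alternative run, and in abundance Gln1y and Lys1y passed only without replicate 2. Without single abundance arrays the count of probes called lower ranged from 0 to 23. Plain subtraction of the background gave 4 probes lower in charged fraction, none of the 4 described. In that setting the change was -0.61 for Glu1y, 0.35 for Gln1y and 0.07 for Lys1y, with a median of -0.46 over all probes. The charged fraction change of Lys2y, -0.019 in the main setting, was -0.50 with plain subtraction, -0.31 with normexp offset 0 and -0.30 with EcTyr2 alone. It was 0.013 with scaling to the median of all probes, 0.0104 with Ser3h alone, 0.082 without Ser3h among the standards, 0.0052 with empty spots kept and 0.19 with deposited names. Relative to the array median, it was -0.014 without background correction, -0.0017 with plain subtraction, -0.0586 with empty spots kept, -0.0592 with medians of repeated spots, -0.00083 with the mean foreground, -0.17 over probes lacking the prefix m and -0.012 with dim probes left out. Glu1y abundance was 0.19 when scaled to all probes, 0.25 with deposited names and 0.33 with the sign of replicate 2 turned. Glu1y total signal was -0.47 without scaling, -0.095, -0.23 and -0.44 with EcLys2, His1h and Ser3h alone, -0.023 without Ser3h, -0.16 with medians of repeated spots, -0.18 with the mean foreground and -0.17 without dim repeated spots, and that of Lys2y was 0.0096 with deposited names. With medians of repeated spots, the change of Lys2y was -1.11 in total and -1.65 in charged signal, against -0.39 and -0.89 in the main setting. The charged signal without Ser3h was 0.017 for Glu1y, 0.044 for Gln1y and 0.085 for Lys1y, and with EcTyr2 alone 0.025 for Gln1y and 0.066 for Lys1y. In the order of probes, deposited names gave 1.34, 1.12 and 1.12 for Gln1y, Lys1y and Lys2y minus Glu1y (exact adjusted p = 0.0625), -0.22 for Lys1y minus Gln1y and -0.23 for Lys2y minus Gln1y. Lys2y minus Gln1y was -0.025 with medians of repeated spots, -0.00044 with the mean foreground and -0.012 without dim repeated spots, a setting chosen after seeing the data under which Lys2y minus Lys1y, at -0.66, passed (exact adjusted p = 0.0375). The cause of these shifts was not tested.

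With single charging arrays left out, the charged fraction change ranged from -0.37 to 0.028 for Glu1y and from -0.23 to 0.18 for Lys2y, and relative to the array median from -0.49 to 0.23 and from -0.15 to 0.25. The total signal ranged from -0.18 to 0.68 for Glu1y and from -0.87 to 0.22 for Lys2y, and the charged signal from -1.59 to 0.47 for Glu1y, -1.31 to 0.41 for Gln1y, -1.16 to 0.041 for Lys1y and -2.27 to 0.090 for Lys2y. The differences from Glu1y ranged from 1.02 to 1.52 for Gln1y, 1.70 to 2.22 for Lys1y and 1.29 to 1.45 for Lys2y, Lys1y minus Gln1y from 0.65 to 0.74 and Lys2y minus Gln1y from -0.17 to 0.27. Replicate numbers did not pair the strains (correlations of the deviations of 0.09, -0.61 and -0.06), and with the replicate block the charged fraction changes were the same values, -0.21, 0.75, 0.49 and -0.02 for Glu1y, Gln1y, Lys1y and Lys2y, with 0 probes called and no other call changed. The blocked channel values were those of the fit without the block.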
